A study of Mus musculus with 9 samples.

Results

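The genes described here encode 8 small leucine-rich proteoglycans (Dcn, Bgn, Lum, Fmod, Ogn, Omd, Prelp and Aspn) and the large aggregating proteoglycans Vcan and Acan. They were taken by name, 10 of the 33293 genes in the deposited table, and all 10 were found and passed the filter on low values. Whole aortas were taken at 7 to 8 weeks of age from males fed normal chow, and 5 libraries came from C57BL/6J mice (WT) and 4 from Apoe knockout mice (Apoe_KO), which lack the apolipoprotein that carries remnant lipoproteins to their receptors. The labels name neither the knockout allele nor its strain background. They leave unsaid if the libraries are from different animals, so p-values measure only the spread between these libraries, which may be technical.

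Small leucine-rich proteoglycans are secreted proteins with a curved, repeat-built core that lies on collagen fibrils and sets their diameter and spacing. Several carry chondroitin, dermatan or keratan sulphate chains, and some bind growth factors such as TGF-beta. Versican and aggrecan instead carry many chondroitin sulphate chains and form large, water-holding complexes with hyaluronan. In arteries these proteins fill the space between smooth muscle cells and in the adventitia, and their charged chains are known to retain lipoproteins in the intima of atherosclerosis-prone vessels.

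Of the 10 genes, Vcan and Ogn were higher in Apoe_KO and 0 were lower (limma, adjusted p under 0.05 over all 13383 tested genes). Over all tested genes 7.35% were called, 3.43% higher and 3.92% lower. Both genes, and none of the other 8, had groups that did not overlap, against 4.9% of tested genes higher and 7.48% lower without overlap. Bgn, Prelp, Fmod, Omd, Acan, Dcn and Aspn had higher means in Apoe_KO without passing the test, and the mean of Lum was nearly equal in both groups. At an unadjusted p under 0.05 there were 3 of 10 higher and 0 lower. The share of all tested genes under that threshold is not given here. It was large, as Chad, at an unadjusted limma p of 0.0496, had an adjusted p of 0.202. Such counts, here and in the lists below, therefore show no excess by themselves. Limma-voom on recovered reads, run beside limma, called 2 higher and 0 lower (5.42% and 2.91% of all genes it tested). With every library centred on its median, 2 were higher, against 4.71% of tested genes higher and 2.01% lower. The median difference of the 10 genes was 0.23 on the log2 scale and 9 were above 0. Over all tested genes the median was -0.07 and 36.1% were above 0, and with a filter of 10 FPKM the median was -0.012. Medians of the lists below lay on both sides of 0. They were 0.20 for 10 smooth muscle markers (8 above 0), 0.21 for 9 macrophage markers (9 above 0) and -0.25 for 11 collagen genes (2 above 0).

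Vcan and Ogn both lie on mouse chromosome 13, 40 Mb apart. The 250 bases before the start site of each, from RefSeq on GRCm38.p6 (chr13:89742513-89742762 on the minus strand for Vcan, chr13:49607765-49608014 on the plus strand for Ogn), are shown because these are the genes that passed the test. Capitals mark matches, on either strand, to any of 8 motifs. These were the TATA box, searched as TATAAA, and the CCAAT box under its own letters. The GC box was searched as GGGCGG, the AP-1 site as TGANTCA, and the heat shock element as GAANNTTC. The E-box was searched as CACGTG, the MCAT element as CATTCC, and the CArG box by its usual pattern.
Vcan: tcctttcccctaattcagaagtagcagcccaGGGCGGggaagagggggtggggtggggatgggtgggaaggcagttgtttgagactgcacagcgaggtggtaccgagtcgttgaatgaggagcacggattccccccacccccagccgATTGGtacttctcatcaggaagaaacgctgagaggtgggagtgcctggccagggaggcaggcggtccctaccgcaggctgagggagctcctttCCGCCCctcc
Ogn: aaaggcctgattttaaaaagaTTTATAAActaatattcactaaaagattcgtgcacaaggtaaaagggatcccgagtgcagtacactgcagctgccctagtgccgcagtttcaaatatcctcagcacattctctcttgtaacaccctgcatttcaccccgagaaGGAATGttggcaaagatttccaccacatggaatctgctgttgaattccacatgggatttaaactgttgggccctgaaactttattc

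The Vcan stretch held 2 GC boxes and 1 CCAAT box, and of 27025 RefSeq promoters of that length 32.9% hold at least 1 GC box and 34.5% at least 1 CCAAT box. Ogn had no motif in common with it: its stretch held 2 overlapping matches to the TATA box, 229 to 222 bases before the start, and 1 MCAT element (13% and 12.6% of promoters hold at least 1). Their composition also differed, with 62.4% G and C at Vcan and 42.0% at Ogn, against a median of 52.0%. Among the 8 of the 10 genes in the promoter table, the stretches ran from 30% G and C at Aspn to 74.4% at Acan. None of the 8 held an AP-1 site (6.87% of promoters), a heat shock element (6.78%), an E-box (6.05%) or a CArG box (1.4%), which says only that these letters are not in these windows. Dcn and Lum are not in the promoter table.

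In WT aorta the order of levels, per length of transcript, ran from Bgn at 513 ± 26.8 FPKM (SD, n = 5; fragments or reads per kilobase of exon, scaled to library depth) to Acan at 3.37 ± 0.880 FPKM. Bgn, Dcn and Ogn were among the most abundant transcripts, at ranks 36, 74 and 93 of the tested genes, and Bgn alone was 37.2% ± 2.04 of the summed level of the 10 genes. Dcn (301 ± 40.5) and Ogn (256 ± 18.1) followed and overlapped between libraries. So did Lum (106 ± 11.7) with Prelp (103 ± 11), and Vcan (10 ± 0.394) with Omd (9.30 ± 1.37). Fmod (41.9 ± 1.72) and Aspn (38.0 ± 2.94) also overlapped in range, though Fmod was above Aspn in 5 of 5 WT libraries. In Apoe_KO the means of Ogn and Dcn, and of Prelp and Lum, changed places in that order, and each of these pairs overlapped in range there too.

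**Figure D1:**
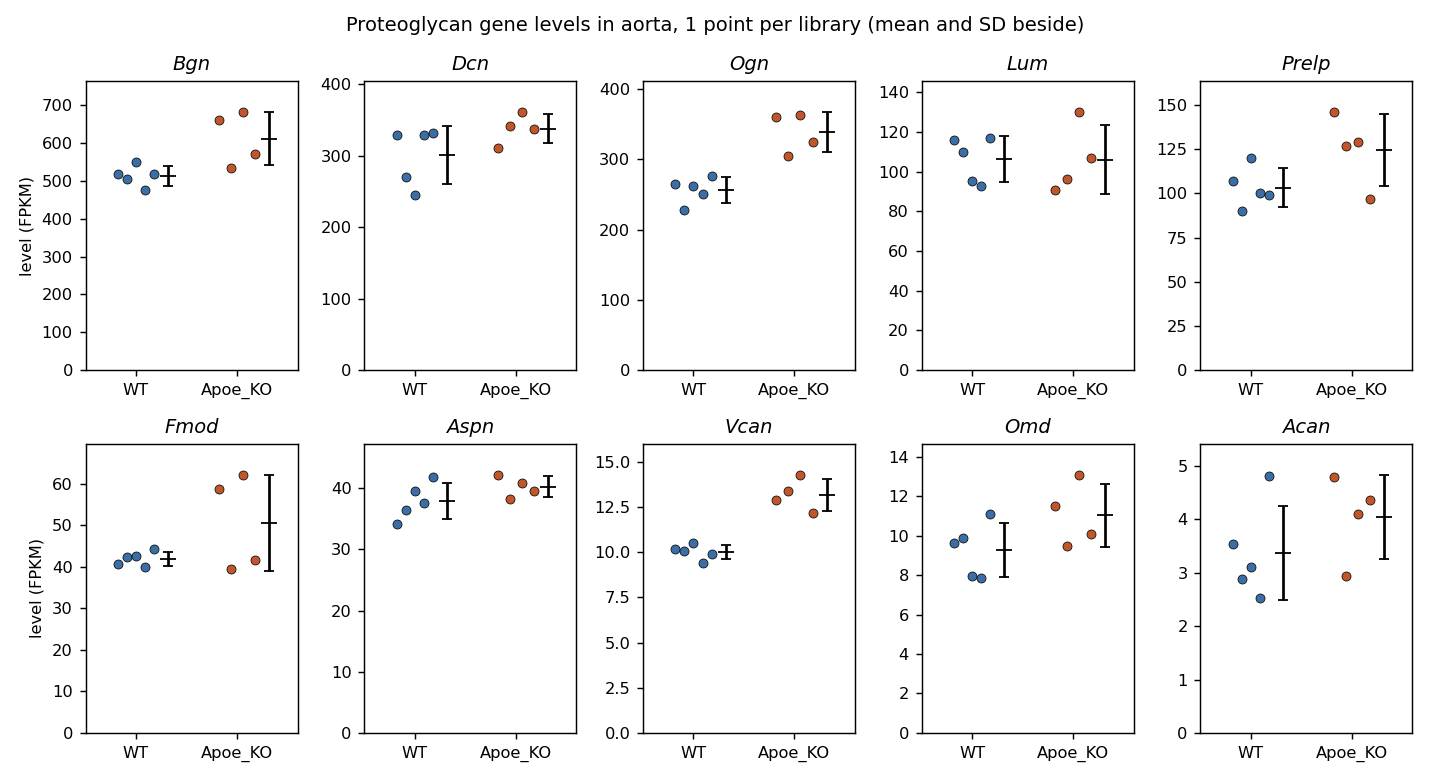
Level in FPKM (vertical axis, from 0) of each proteoglycan gene in WT and Apoe_KO aorta, in order of WT level, with 1 point per library and the mean and SD beside the points. The Apoe_KO points of Vcan and Ogn sit above every WT point, whereas the groups of the other 8 genes overlap.

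Versican, encoded by Vcan (ENSMUSG00000021614, chromosome 13, 89655312 to 89742509, minus strand, GRCm38), is the main hyaluronan-binding proteoglycan of the arterial wall. Its level was 10.2, 10.1, 10.5, 9.43 and 9.89 FPKM in WT 1 to WT 5. In Apoe_KO 1 to Apoe_KO 4 it was 12.9, 13.4, 14.3 and 12.2 FPKM. The WT libraries lay close together and all 4 Apoe_KO libraries were above them. Vcan rose by 31.9% in mean level, to 13.2 ± 0.850 FPKM (SD, n = 4), and its log2 difference was 0.37 (SE 0.060, 95% interval 0.23 to 0.50, limma adjusted p = 0.00849). It rested on 2472 to 3889 reads per library, and leaving out any single library left adjusted p between 0.0121 and 0.0318. The values cover the whole gene, 14462 exonic bases, so the splice forms of versican with longer or shorter chain-bearing regions cannot be told apart.

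Aggrecan (Acan, chromosome 7, 79053483 to 79115099, plus strand), the large proteoglycan of cartilage and of stiffened artery, was the scarcest of the 10. It stood at 3.54, 2.88, 3.11, 2.53 and 4.81 FPKM in WT and at 4.79, 2.94, 4.10 and 4.36 FPKM in Apoe_KO. The groups overlapped, and WT 5 was the highest of the 9 libraries. Its difference was 0.21 (SE 0.157, 95% interval -0.14 to 0.57, limma adjusted p = 0.436), the widest interval of the 10 genes, on 362 to 698 reads. The Acan log2 difference was 0.32 without WT 5 and 0.33 without Apoe_KO 2. Acan lies 59.4 Mb from Apoe on the same chromosome. Of 11 listed chondrocyte genes 1, Comp, passed the filter. Comp was above Acan, at 16.5 ± 2.24 FPKM in WT and 18.8 ± 4.61 FPKM in Apoe_KO. Col2a1, the main cartilage collagen and not in that list, was at 0 to 0.373 FPKM. The source of the Acan reads was not tested.

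Osteoglycin, or mimecan, encoded by Ogn (ENSMUSG00000021390, chromosome 13, 49608046 to 49624501, plus strand), is a small leucine-rich proteoglycan of smooth muscle and fibroblasts that takes part in collagen fibril assembly. It stood at 265, 228, 262, 251 and 276 FPKM in WT 1 to WT 5. The Apoe_KO libraries were at 361, 305, 364 and 325 FPKM, all above the highest WT library. Ogn rose by 32.4% in mean level, to 339 ± 28.6 FPKM (SD, n = 4), with an Ogn log2 difference of 0.40 (SE 0.085, 95% interval 0.21 to 0.59, limma adjusted p = 0.0230). The call was lost without WT 4, Apoe_KO 1 or Apoe_KO 3 (limma adjusted p = 0.0611, 0.0603 and 0.0762), without WT 2 and Apoe_KO 4 together (0.0638) and under quantile normalization (0.0808), while the difference stayed between 0.36 and 0.47.

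Ogn is the last of 3 described genes that stand in a row on chromosome 13 on the same strand, 14.9 kb between Aspn and Omd and 15.2 kb between Omd and Ogn. Its neighbours did not pass the test. Omd, which encodes osteomodulin, a proteoglycan of bone matrix, was at 9.63, 9.91, 7.98, 7.88 and 11.1 FPKM in WT and at 11.5, 9.49, 13.1 and 10.1 FPKM in Apoe_KO (difference 0.22, SE 0.117, 95% interval -0.04 to 0.49, limma adjusted p = 0.273). Aspn encodes asporin, an inhibitor of TGF-beta, and ran from 34.2 to 41.9 FPKM in WT and from 38.3 to 42.2 FPKM in Apoe_KO. Its groups overlapped. Its difference was 0.08 (95% interval -0.07 to 0.24, limma adjusted p = 0.488; 0.05 without WT 1), and an exon of Cenpp on the opposite strand overlaps it, with the strand of the counting not stated. The ratio of Ogn to Omd was 28.0 ± 4.28 in WT and 31.0 ± 2.08 in Apoe_KO and overlapped between groups. Whether Ogn differed in its response from Omd or Aspn was not tested.

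Biglycan and decorin are the closely related pair of dermatan or chondroitin sulphate proteoglycans that bind type I collagen and TGF-beta. Bgn (X chromosome) was at 519, 505, 549, 475 and 518 FPKM in WT and at 660, 534, 681 and 570 FPKM in Apoe_KO. Of the Apoe_KO values 3 exceeded every WT value and Apoe_KO 2 did not. The difference was 0.25 (SE 0.092, 95% interval 0.04 to 0.45) with an unadjusted p of 0.0238 and a limma adjusted p of 0.135, and it was called only with library weights (adjusted p = 0.0339; 0.0339 to 0.313 over the alternatives).

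Dcn (chromosome 10) was at 329, 270, 245, 329 and 331 FPKM in WT and at 311, 342, 361 and 337 FPKM in Apoe_KO. WT 2 and WT 3 were the low libraries, and the other WT libraries were within the range of Apoe_KO. Its difference was 0.17 (SE 0.108, 95% interval -0.07 to 0.42, limma adjusted p = 0.354), and without WT 3 it was 0.10. The ratio of Bgn to Dcn within a library was 1.74 ± 0.320 in WT and 1.82 ± 0.244 in Apoe_KO, so the balance of the pair overlapped between groups.

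Lumican and fibromodulin are keratan sulphate proteoglycans that share a binding site on collagen. Lum, 47.0 kb from Dcn on chromosome 10, was at 116, 110, 95.2, 92.5 and 117 FPKM in WT and at 90.7, 96.5, 130 and 107 FPKM in Apoe_KO. It had both its lowest and its highest value in Apoe_KO libraries. The difference was -0.01 (95% interval -0.27 to 0.26, limma adjusted p = 0.971), which as a fold is an interval of 0.827 to 1.19, and its sign turned under several alternatives.

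Fmod (chromosome 1) was at 40.6, 42.4, 42.7, 39.9 and 44.2 FPKM in WT and at 58.8, 39.5, 62.2 and 41.7 FPKM in Apoe_KO. Apoe_KO 1 and Apoe_KO 3 stood well above WT and the other 2 were at the WT level, which made the Apoe_KO SD 11.6 FPKM against 1.72 FPKM in WT. The mean was 20.5% higher and the difference 0.24 (SE 0.132, 95% interval -0.06 to 0.53, limma adjusted p = 0.306), which was 0.13 without Apoe_KO 3. Prelp, 116 kb from Fmod, encodes a proteoglycan that anchors basement membranes to collagen. It was at 107, 90.3, 120, 100 and 98.9 FPKM in WT and at 146, 127, 129 and 96.9 FPKM in Apoe_KO, where 3 of 4 libraries were above every WT library and Apoe_KO 4 was not. The difference was 0.26 (SE 0.123, 95% interval -0.01 to 0.53, adjusted p = 0.223), and exons of Gm15851 on the opposite strand overlap Prelp.

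**Figure D2:**
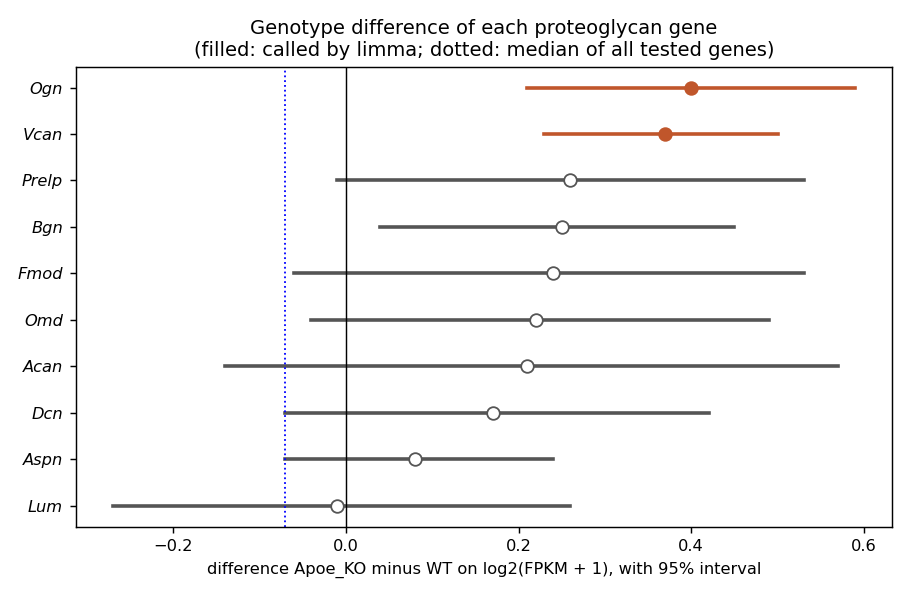
Difference Apoe_KO minus WT on log2(FPKM + 1) (horizontal axis) for each proteoglycan gene, with its 95% interval and filled points for genes called by limma. Ogn at 0.40 and Vcan at 0.37 are the filled points, and the dotted line is the median of all tested genes, -0.07.

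The genes did not vary as 1 block among the Apoe_KO libraries. Apoe_KO 3 was the highest of the 9 libraries for 7 of the 10 genes and exceeded every WT library for 8. Apoe_KO 1 exceeded every WT library for 7 genes but was the lowest of all for Lum. Apoe_KO 2 and Apoe_KO 4 each exceeded every WT library for 4 genes, among them Vcan and Ogn. Among WT libraries, WT 4 was the lowest of the 9 for 4 genes, and WT 5 was the highest for 1, Acan. The same counts over all tested genes are not given here, so these do not set the 10 genes apart from other genes. The 10 genes together summed to 1305 to 1453 FPKM in WT (0.408% to 0.474% of all FPKM) and to 1508, 1545, 1699 and 1800 FPKM in Apoe_KO 2, 4, 1 and 3 (0.452% to 0.599%).

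The sums of smooth muscle and adipocyte markers set the 2 high libraries apart. In WT most of the smooth muscle sum was Acta2 (4009 ± 285 FPKM), and most of the adipocyte sum was Cfd (2704 ± 509 FPKM). The 10 smooth muscle markers summed to 6625 and 6472 FPKM in Apoe_KO 1 and Apoe_KO 3, above the other Apoe_KO libraries (5236 and 5336) and WT (5018 to 5998). Of these markers 2 of 10 were called higher (Itga8 and Synpo2; 5 higher and 0 lower at an unadjusted p under 0.05) and none was at 0. Both calls were lost without any 1 library other than WT 3, Apoe_KO 2 and Apoe_KO 4 (limma adjusted p up to 0.117 and 0.124). The 10 adipocyte markers were lowest in the same libraries, 2424 and 2723 FPKM, against 4796 and 3573 in Apoe_KO 2 and Apoe_KO 4 and 3650 to 5594 in WT, with 2 of 10 called lower (Lep and Plin1; 4 lower and 0 higher at an unadjusted p under 0.05) and none at 0. Leaving out Apoe_KO 3, or any of WT 1, WT 2 and WT 4, ended the Lep call (limma adjusted p up to 0.0863), and that of Plin1 without any 1 library other than Apoe_KO 2 (up to 0.129). The part of either in the proteoglycan values was not tested, and in whole tissue fewer cells of a type and less RNA per cell cannot be told apart.

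Adventitial fibroblasts are a main source of these proteoglycans, and the summed level of their markers overlapped between groups. The sum was 885 to 1117 FPKM in WT and 971 to 1270 FPKM in Apoe_KO. By limma 0 of 12 were called (2 higher and 1 lower at an unadjusted p under 0.05, and 1 higher by voom). Pi16 alone of them did not overlap, at 96.8 to 111 FPKM in WT and 113 to 156 FPKM in Apoe_KO (limma adjusted p = 0.0713). Over all tested genes 4.9% were higher without overlap. Of the other lists, 1 of 10 endothelial markers (Kdr) was lower, by limma and by voom, with a median of -0.32 and 3 lower and 0 higher at an unadjusted p under 0.05. The Kdr call was lost without Apoe_KO 3 (limma adjusted p = 0.0648). None of 9 macrophage markers (4 higher and 0 lower at an unadjusted p under 0.05, and 2 higher by voom), 6 lymphocyte markers or 6 striated muscle markers was called, with 0 at an unadjusted p under 0.05 and 0 by voom for the last pair of lists. Lymphocyte markers summed to 505 FPKM in WT 2 and 427 in Apoe_KO 4, against 18.4 to 42.6 in the other 7 libraries, and WT 2 and Apoe_KO 4 stood apart on the first principal component (30.5% of the variance). Without these libraries Vcan was still called (Vcan log2 difference 0.40, limma adjusted p = 0.0287). Heat shock and immediate early genes also record handling of the tissue. Their sum separated the groups, at 638 to 986 FPKM in WT and 1534 to 2038 FPKM in Apoe_KO, with 7 of 14 called higher. Apart from Ier3, the called genes were heat shock genes. Jun, Junb, Egr1, Atf3 and Nr4a1 overlapped between groups and were not called. Fos went the other way, from 71.9 ± 42.8 to 21.2 ± 7.48 FPKM (difference -1.59, limma adjusted p = 0.0659). The part of these genes in the results was not tested. Apoe itself was at 513 to 643 FPKM in WT and 5.64 to 6.55 FPKM in Apoe_KO, as labelled, and depths were 17.0 to 19.8 M reads or fragments.

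**Figure D3:**
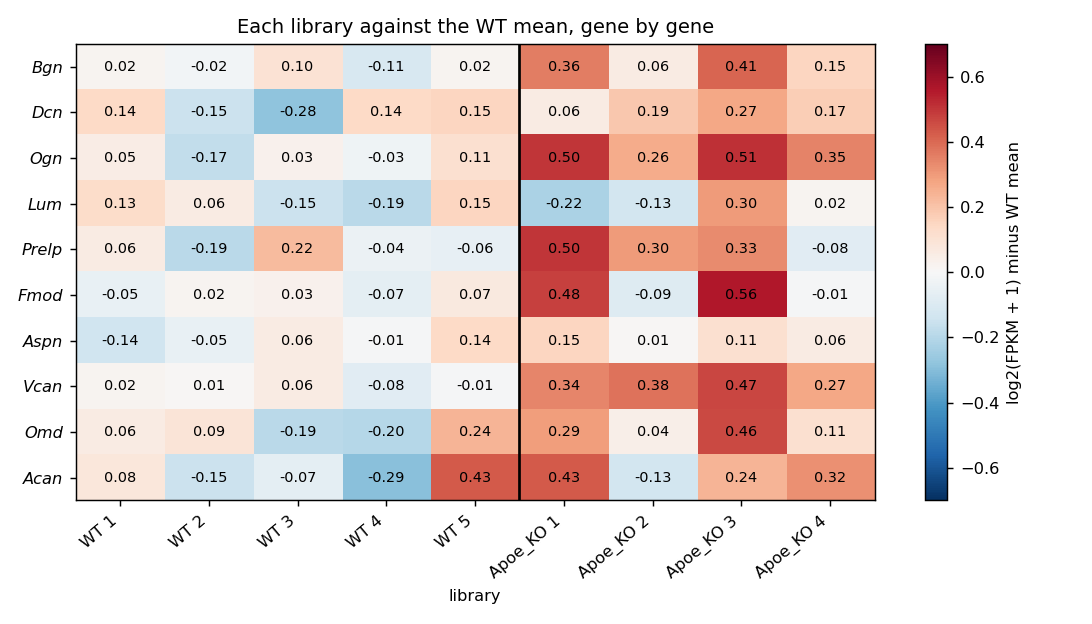
Difference of each library from the WT mean on log2(FPKM + 1), by colour and number, for each proteoglycan gene (rows, in order of WT level) and library (columns). The Vcan row runs from 0.27 to 0.47 in Apoe_KO, whereas Fmod splits into 0.48 and 0.56 in Apoe_KO 1 and 3 and -0.09 and -0.01 in Apoe_KO 2 and 4.

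Among the collagens that small leucine-rich proteoglycans coat, 2 fell. Of 11 tested genes for fibrillar collagens and associated chains 0 were higher, with a median of -0.25, and 6 were lower at an unadjusted p under 0.05. Col3a1, of type III collagen, fell from 490 ± 75.7 FPKM (SD, n = 5) to 300 ± 67.1 FPKM (SD, n = 4; difference -0.72, limma adjusted p = 0.0248), and Gm47302 overlaps it on the same strand. That call was lost without WT 1, WT 4, WT 5, Apoe_KO 1 or Apoe_KO 4 (adjusted p up to 0.0595) and without WT 2 and Apoe_KO 4 together. Col5a3, of a minor type V chain, fell from 12.3 ± 1.89 to 6.69 ± 0.960 FPKM (difference -0.79, adjusted p = 0.00694). Col1a1, chosen after its values were seen, had a difference of -0.64 that did not pass (adjusted p = 0.0592).

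Set against these collagens, Dcn, Bgn, Ogn and Vcan were in higher proportion in each Apoe_KO library than in any WT library, in the 5 ratios computed. The ratio of Dcn to Col3a1 was 0.617 ± 0.0603 in WT and 1.16 ± 0.218 in Apoe_KO. For Ogn to Col3a1 it was 0.528 ± 0.0532 and 1.16 ± 0.160, and for Bgn to Col1a1 1.25 ± 0.201 and 2.30 ± 0.333 (SD, 5 WT and 4 Apoe_KO libraries). Both members of such a ratio contribute to it, and it shows unequal change only. Ogn and Vcan were already higher, and Col3a1 already lower, without overlap, so the ratios of Ogn and Vcan to Col3a1 had to separate. The ratios were chosen after the values were seen and are given without a test.

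**Figure D4:**
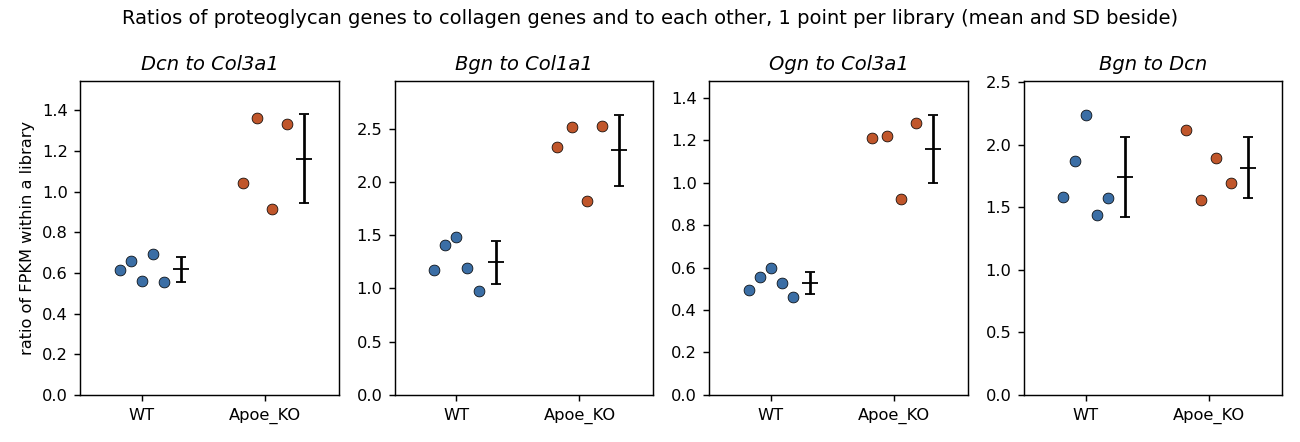
Ratio of FPKM values within a library (vertical axis, from 0) for 3 proteoglycan to collagen pairs and for Bgn to Dcn, with 1 point per library and the mean and SD beside. The groups are separate for the collagen pairs, as in Dcn to Col3a1 at 0.617 in WT and 1.16 in Apoe_KO, and overlap for Bgn to Dcn. For Ogn to Col3a1 this had to be so, as neither gene overlapped between groups.

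In the list of linkage region and precursor supply for the sugar chains, 1 of 13 genes was higher, 1 lower, and the median was -0.15. Of the 13 only 2 had a positive difference, 7 were lower and 1 higher at an unadjusted p under 0.05, and voom called 1 higher and 0 lower. Every Apoe_KO library was below every WT library for Xylt2, B3galt6, Fam20b, Slc35b2, Slc26a2 and Papss1, of which Slc35b2 passed the test. All but Slc35b2 were named after their values were seen. Other lists also held uncalled genes without overlap, such as Chst11 and Adamts9 (higher) and Chst12 (lower). Over all tested genes 7.48% were lower without overlap, and the median difference was -0.07. Ugdh, the enzyme that makes UDP-glucuronic acid for the linkage region and for chondroitin and dermatan sulphate, was at 9.42, 10.5, 8.98, 10.9 and 11.4 FPKM in WT and at 14.5, 15.0, 16.7 and 15.6 FPKM in Apoe_KO. The groups were separate, and Ugdh rose by 0.55 on the log2 scale (SE 0.078, limma adjusted p = 0.00376), a call kept in all 18 alternatives, though Gm43552 overlaps it on the same strand. Slc35b2, the Golgi transporter of the sulphate donor, fell from 13 ± 0.867 to 10.4 ± 0.626 FPKM (difference -0.30, adjusted p = 0.0264). It was called in 6 of 18 alternatives and lost without WT 1, WT 3, WT 5, Apoe_KO 1, Apoe_KO 3 or Apoe_KO 4 (highest adjusted p 0.0659).

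For chondroitin and dermatan sulphate, 1 of 15 synthesis genes was higher and 0 lower, with a median of 0.15. At an unadjusted p under 0.05 there were 6 higher and 1 lower, and voom called 3 higher and 0 lower. The gene called was Chst3, a chondroitin 6-O-sulphotransferase, at 7.83, 13.5, 7.28, 7.56 and 8.36 FPKM in WT and 14.1, 11.6, 16.4 and 21 FPKM in Apoe_KO. WT 2 lay within the Apoe_KO range. The difference was 0.77 (SE 0.196, limma adjusted p = 0.0458), and the call was lost without any 1 of WT 1, WT 3, WT 4, WT 5, Apoe_KO 1, Apoe_KO 3 or Apoe_KO 4 (adjusted p up to 0.126). None of 7 keratan sulphate synthesis genes was called by limma or voom (1 higher and 2 lower at an unadjusted p under 0.05), with Chst1 at -0.40 (adjusted p = 0.107) and Fut8 at -0.17 (0.132).

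Among the enzymes that cut versican and aggrecan, ADAMTS proteases moved in both directions. Of 11 tested proteases and inhibitor 3 were higher and 1 lower, with a median of 0.25. At an unadjusted p under 0.05 there were 6 higher and 2 lower, and voom called 5 higher and 0 lower. Adamts1 was at 52.8, 57.5, 75.6, 64.2 and 83.8 FPKM in WT and at 112, 108, 136 and 151 FPKM in Apoe_KO (difference 0.92, SE 0.152, limma adjusted p = 0.00851). Adamts15 rose from 5.14 ± 0.532 to 9.55 ± 1.5 FPKM (difference 0.77, adjusted p = 0.00282). Neither overlapped between groups, and both were called in every alternative that tested them. Adamts5 went the other way, from 11.2 ± 0.651 to 8.49 ± 1.22 FPKM (difference -0.37, adjusted p = 0.0368). That call was lost without any WT library, without Apoe_KO 1 or without Apoe_KO 4 (highest adjusted p 0.0861), and it was kept in 5 of 18 alternatives, with the highest adjusted p 0.172. Timp3, the matrix-bound inhibitor of these proteases, rose from 101 ± 4.75 to 130 ± 10.1 FPKM (difference 0.36, adjusted p = 0.0176). It lost its call without WT 4 or Apoe_KO 3 (highest adjusted p 0.0609) and without WT 2 and Apoe_KO 4 together, and Syn3 overlaps it on the opposite strand.

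**Figure D5:**
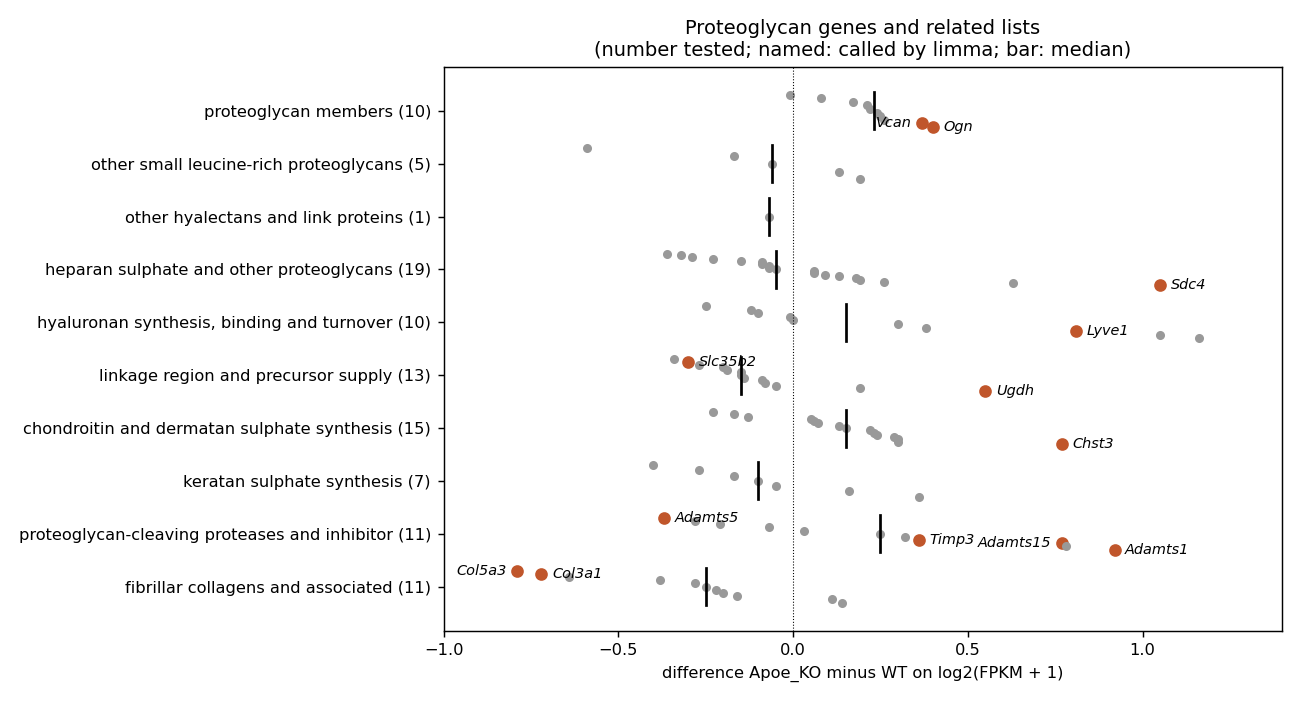
Difference Apoe_KO minus WT on log2(FPKM + 1) (horizontal axis) for each tested gene of the proteoglycan genes and 9 related lists, with called genes named and coloured and a bar at each median. The bar of the 10 genes is at 0.23 and that of the collagens at -0.25.

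Among other proteoglycans 1 gene passed the test. Of 5 tested small leucine-rich relatives none was called by limma or voom (1 higher and 1 lower at an unadjusted p under 0.05). Ecm2, the fourth gene of the chromosome 13 row, had a difference of 0.19 (adjusted p = 0.128) and Chad, chondroadherin, -0.59 (0.202). The Chad difference was -0.31 without Apoe_KO 1 and reached -0.93 with voom. Kera was listed at 0 in every library. The link protein gene Hapln1 was the only tested one of 6 hyalectan and link protein genes (difference -0.07, adjusted p = 0.661, and 0 called by voom or at an unadjusted p under 0.05). Of 19 heparan sulphate and other proteoglycans 1 was higher and 0 lower, with a median of -0.05 and with 4 higher and 1 lower at an unadjusted p under 0.05. It was Sdc4, a cell surface syndecan, which rose from 50.5 ± 7.38 to 105 ± 9.99 FPKM (SD, n = 5 and n = 4; difference 1.05, SE 0.114, limma adjusted p = 0.00139), a call kept in all 18 alternatives.

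Of 10 tested genes for hyaluronan synthesis, binding and turnover, the partner of versican, 1 was higher and 0 lower, with a median of 0.15, and 5 were higher and 1 lower at an unadjusted p under 0.05. The 15 genes of this list in the table summed to 84.2 to 104 FPKM in WT and to 114 to 143 FPKM in Apoe_KO. Of these genes Lyve1 had the highest mean in both groups and the largest rise in mean FPKM, so the sum leans on it. Lyve1, a hyaluronan receptor of lymphatic vessels and resident macrophages, rose from 25.0 ± 4.15 to 45.1 ± 11 FPKM (difference 0.81, limma adjusted p = 0.0196). The call was lost without Apoe_KO 3 (adjusted p = 0.0653) and without WT 2 and Apoe_KO 4 together.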

How the data were processed

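The submitters' processing notes name GRCm38 and limma. Not given in the sources used here were the aligner, the counter, the annotation and the strand setting. The values that the authors deposited per gene were read as FPKM, since multiplying them by GENCODE mouse release 21 exon lengths gave whole reads, within 0.1 read, for 97.6% to 97.9% of those up to 50 reads. A filter kept the 13383 genes that reached 1 FPKM in 4 or more libraries, and tests ran on log2(FPKM + 1), a scale that understates changes of low genes, with limma 3.58.1 in R 4.3.3 (trend and robust empirical Bayes, genotype as the only term, 9 libraries, two-sided, Benjamini-Hochberg over all tested genes). Symbols and overlaps came from GENCODE, promoters from RefSeq. The steps were tested on simulated data. The genes and lists were chosen with earlier results of these data known. Named genes were the 10, then up to 4 called per list by smallest p, or the 2 of smallest p. Some further genes were named after their values were seen. One marker list and a gene overlap are not reported here.

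The labels give the molecule as polyA RNA while their protocol removes ribosomal RNA, a conflict that was not settled. The 18 alternatives were limma-voom on reads recovered from the deposited FPKM, library weights, quantile normalization, centring on each library's median, no filter or one at 10 FPKM, a pseudocount lowered to 0.1, a replicate block, and fits without each single library or without both WT 2 and Apoe_KO 4. Python 3.11.15 and matplotlib 3.10.9 were used for tables and plots.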

Additional observations from a re-analysis of the deposited data

Results flagged for a closer look

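Of 66 gene and group pairs examined, 3 had a library far from the rest of its group, and none was among the 10 proteoglycan genes. Chance alone flags at least 1 in 20 such pairs, so 3 of 66 is no excess. Chst3 was at 13.5 FPKM in WT 2 against 7.28 to 8.36 in the other WT libraries. Chst1 was at 27.4 FPKM in WT 4 against 17.8 to 19.6. Adamts15 was at 6.05 FPKM in WT 5 against 4.64 to 5.02.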

How the results depend on the processing

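Vcan was called in 17 of 18 alternatives (0.33 to 0.46) and Ogn in 12 (0.36 to 0.47; 0.36 to 0.45 with a library left out). The Ogn difference was 0.38 without WT 2 and Apoe_KO 4 and 0.40 with quantile normalization, neither called. Bgn was called with library weights (0.33). Lum turned to 0.06 with median centring and voom, 0.07 with library weights and 0.03 with the replicate block, and ran from -0.11 to 0.06 with a library left out. Hapln1 turned to 0.06 with quantile normalization. Of the 10 genes 1 to 2 were called higher with a library left out, 1 without WT 2 and Apoe_KO 4 and 1 with quantile normalization.

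Over all tested genes 459 were higher and 524 lower, and 210 to 580 and 179 to 678 with a library left out. The counts were 202 and 165 without WT 2 and Apoe_KO 4, 247 and 198 with no filter, 702 and 1055 with library weights, and 725 higher with voom. There were 220 lower at a filter of 10 FPKM, 269 with median centring and 240 with quantile normalization. Median centring raised the share of calls that were higher from 46.7% to 70.1% (4.71% of tested genes higher). The cause of these shifts was not tested, beyond the fewer genes or libraries that some settings hold.

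The labels do not say if equal replicate numbers pair the libraries. Same-numbered libraries had correlations of deviations across genes of 0.259, -0.267, -0.129 and -0.218, against 0.609 for WT 2 with Apoe_KO 4. These few values cannot settle the question. With the replicate block, in which WT 5 carries no weight, 121 genes were higher and 62 lower, and 0 of the 10 genes were called, with Vcan at 0.36 (limma adjusted p = 0.0814) and an Ogn log2 difference of 0.43 (0.0781). Acan, at 362 to 698 reads, and Omd, at 338 to 553, had the fewest reads of the 10.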

Other observations

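Has1 and Tnfaip6, hyaluronan genes outside the called set that were chosen with Hapln3 after their values were seen, differed among the Apoe_KO libraries. Has1, a hyaluronan synthase gene, was at 0.711, 8.76, 1.93 and 5.13 FPKM in Apoe_KO 1 to Apoe_KO 4 and at 0.559 to 1.72 FPKM in WT (limma adjusted p = 0.152). Tnfaip6, whose protein moves heavy chains onto hyaluronan, was at 4.34, 14.0, 6.05 and 11.7 FPKM against 2.22 to 5.31 FPKM (adjusted p = 0.0746). Both were highest in Apoe_KO 2 and Apoe_KO 4, the libraries in which Fmod and Bgn were lowest within the Apoe_KO group. Hapln3, a link protein gene below the filter, was at 0.171 to 0.215 FPKM in Apoe_KO and 0.374 to 0.566 FPKM in WT, on 11 to 37 reads, and the groups did not overlap.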
